A study of Mus musculus with 24 samples.

Results

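Oxidative phosphorylation is the final stage of respiration in mitochondria, and the genes described here are nuclear genes for its protein subunits. They were taken by symbol, as Nduf genes with a subunit letter and number (complex I), Sdha to Sdhd (complex II), Uqcr genes (complex III), Cox4 to Cox8 genes (complex IV) and Atp5 genes (complex V), with a mean of at least 1 CPM (reads of a gene in every 1000000 reads counted) over 24 libraries. Of 24982 gene symbols counted, 85 matched and 78 met the minimum: 35 for complex I, 4 for complex II, 8 for complex III, 14 for complex IV and 17 for complex V. All 78 were among the 12743 genes with enough counts to be tested. The libraries came from eosinophils of C57BL/6 wild-type mouse bone marrow, sorted into 4 stages of maturation, I to IV. Some groups came from mice in steady state, and the others from mice given 400 ng of recombinant interleukin 33 (IL-33), a cytokine that drives eosinophil accumulation, by daily intraperitoneal injection over 7 days. Stage and condition together made 8 groups, with 3 libraries in a group and the cells of 3 mice pooled in a library. The sources used here do not give age or sex of the mice.

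Complexes I to IV of the inner mitochondrial membrane pass electrons from NADH and succinate to oxygen, and complexes I, III and IV pump protons as they do so. Complex V, the ATP synthase, lets the protons flow back and makes ATP. Some of these subunits are read from mitochondrial DNA and were not analysed here. Each complex below is the set of nuclear genes that its symbols take in. Respiratory genes with other symbols, such as Cyc1, lie outside the sets, and a symbol does not settle the complex of every protein. Mature granulocytes are known for a glycolytic metabolism, and eosinophils for keeping more mitochondrial respiration than neutrophils do.

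The 7 matching symbols below the minimum were Cox8c and Cox7b2, with no reads, Ndufs5 at 0.00379 CPM, Cox8b at 0.0236, Ndufa4l2 at 0.0252, Cox4i2 at 0.0666 and Ndufb4c at 0.541. Just inside the minimum lay Cox6a2 at 4.44 CPM and Cox7a1 at 10.6 CPM, and the other 76 members all exceeded those means. Ndufs5, a complex I subunit that every respiring cell uses, had 1 read in 24 libraries, so its value is a listing and not a level; its cause was not tested. Cox4i2, Cox8b and Ndufa4l2 are alternative isoforms used by other tissues or in low oxygen. Exons of 28 members overlap another gene, and the library method keeps no strand, which means that reads of such pairs cannot be told apart.

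Gene counts summed to 8335138 to 14909453 per library, and libraries of a group differed by more than counting error. Reads assigned to no gene made up 17.8% to 30.5% of reads in steady state and 9.19% to 16.6% under IL-33. The 4 steady state libraries numbered 3 stood apart on early stress genes: Jun lay at 3330 to 5020 CPM in them and at 875 to 2140 CPM in the other 20 libraries, and Atf3 at 165 to 1060 CPM against at most 52.0 CPM. All 12 eosinophil markers examined (such as Epx, Prg2 and Siglecf) were detected in every group, with a summed level of 23600 to 44200 CPM except in stage IV of steady state, where it was 5020 to 8620 CPM. Levels below are CPM after TMM scaling (trimmed mean of M values). They are relative to a scaled library size, so they are neither plain shares of a library's reads nor amounts per cell. In sorted bulk cells, fewer cells of a type and less RNA per cell cannot be told apart.

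The summed level of the 78 genes lay between 11055 and 21841 CPM in all libraries but 1. That library was replicate 2 of stage I under IL-33, at 30109 CPM against 15550 and 19455 CPM in the other replicates of its group. In steady state the sum was 13666 ± 1947 CPM (SD, n = 3) in stage I and 17451 ± 3826 in stage IV, and the libraries overlapped. In stage IV under IL-33 it was 17067 ± 1842 CPM (SD, n = 3). Without scaling, the 78 genes made up 1.91%, 1.60% and 1.38% of gene counts in stage I of steady state and 1.45%, 1.52% and 1.90% in stage IV. Between stages I and IV of steady state the scaled sums of complexes II and IV did not overlap, and those of complexes I, III and V did. Complex II read 805, 806 and 748 CPM in stage I and 917, 830 and 873 CPM in stage IV. Complex IV read 3016, 2386 and 2139 CPM in stage I and 3519, 3417 and 5126 CPM in stage IV. These separations depended on the scaling. As an unscaled percent of gene counts, complex II was lower in stage IV (0.0847%, 0.0853% and 0.0759%) than in stage I (0.0973%, 0.0976% and 0.0862%). Complex IV then overlapped, at 0.364%, 0.289% and 0.247% in stage I and 0.325%, 0.351% and 0.446% in stage IV. Complex V went from 0.555%, 0.489% and 0.414% to 0.384%, 0.373% and 0.411%, without overlap.

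**Figure D1:**
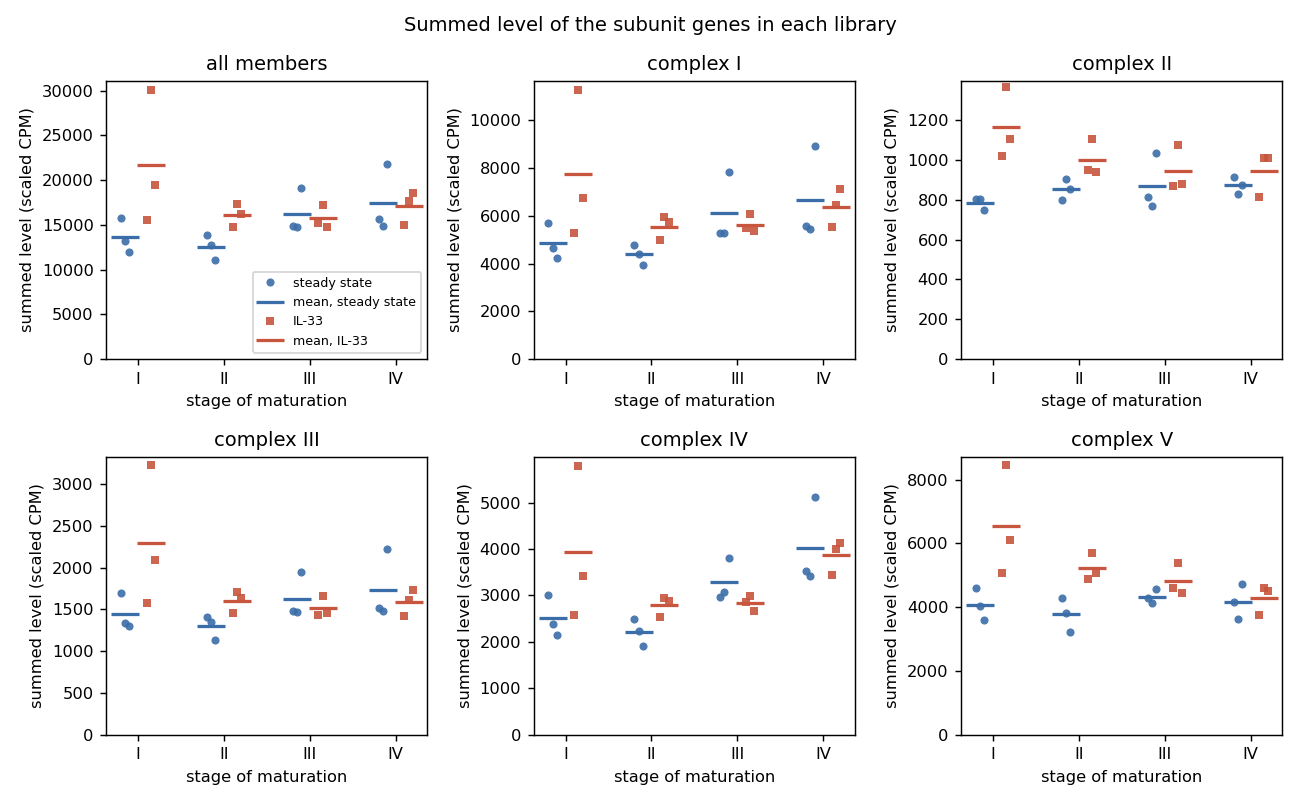
Summed level of the 78 subunit genes and of the genes taken by symbol for each complex, in scaled CPM (linear axis from 0), by stage of maturation. Each point is 1 library (circles steady state, squares IL-33) and each bar the mean of 3; replicate 2 of stage I under IL-33 lies highest, at 30109 CPM for all members.

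Per kilobase of merged exon, the highest values belonged to small structural subunits. Merged exons take in every annotated exon of a gene, so this ranking depends on the annotation as well as on the reads. Without scaling by length Atp5b was highest, at a mean of 876 CPM over 4237 bp of merged exon, against 222 CPM over 530 bp for Atp5o. Cox6a1 led with a mean of 618 CPM per kb over the libraries, followed by Cox8a at 550, both small subunits of cytochrome c oxidase, and Ndufa1 at 546, a small membrane-arm subunit of complex I. The second of complex I was Ndufa2 at 388. Atp5o (419), which links the ATP synthase's catalytic head to its stator, and Atp5h (251) of the stator led complex V. Uqcr11 (291) and Uqcr10 (279), small subunits of the bc1 complex, led complex III, and Sdhd (247) and Sdhb (107) led complex II. The lowest was Cox6a2 at 6.52 CPM per kb.

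Maturation in steady state moved the subunit genes in both directions. Between stage I and stage IV, 25 of 78 members rose and 7 fell in edgeR (quasi-likelihood test, p adjusted by Benjamini and Hochberg's method, threshold 0.05), beside 21.1% of all tested genes that rose and 22.7% that fell. The median log2 fold change was 0.45 over the members and -0.03 over all genes tested. By complex, 9 of 35 complex I genes rose and 2 fell, 1 of 4 complex II genes rose and 1 fell, 1 of 8 complex III genes rose, 7 of 14 complex IV genes rose and 1 fell, and 7 of 17 complex V genes rose and 3 fell. The 7 that fell were Cox6b2, Atp5s, Sdha, Ndufv1, Atp5a1, Atp5b and Ndufs1. Sdha, Ndufv1 and Ndufs1 hold flavin or iron-sulfur sites of complexes II and I, and Atp5a1 and Atp5b form the catalytic head of the ATP synthase. Other genes of iron-sulfur subunits did not fall with them: Sdhb rose (log2 fold change 1.52), and Ndufs7, Ndufs8 and Uqcrfs1 were not called.

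Without the 4 steady state libraries numbered 3, 5 members rose (Cox7a1, Cox8a, Ndufa13, Ndufa7 and Sdhb) and 10 fell, among them the same 7. Scaled by library totals alone, which moved the median of all genes to -0.37, 9 rose and 15 fell, again with the same 7 among the falls. The median over the members was 0.14 in the first of these fits and 0.08 in the second.

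On the step from stage II to III, 18 members rose and 4 fell, beside 17.2% of all genes higher and 17.4% lower. Without the steady state libraries numbered 3 the counts were 2 and 7, and with library totals 3 and 9. Cox7a1 and Ndufa13 rose, and Cox6b2, Ndufv1 and Sdha fell, in all 3 of these fits. The step from III to IV had 2 rises (Cox6a2 and Cox8a) and 2 falls (Ndufs1 and Ndufa9), beside 3.55% of genes higher and 5.67% lower. With library totals Cox6a2, Cox8a and Cox6a1 rose and the falls were no longer called, and without the libraries numbered 3 all 4 calls ended. From stage I to II edgeR called 0 members, with 5 at an unadjusted p under 0.05 and 2 in DESeq2, beside 4.87% of all genes. With a block for the replicate number, which the libraries' deviations bear out for this step, Cox7a1 rose and Atp5s fell.

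Cells and libraries differed along the same steps. All 9 markers of dividing cells, such as Mki67 and Top2a, fell from stage II to III in steady state, where their summed level went from 2520 to 3460 CPM to at most 605 CPM. Neutrophil markers (11, none at 0), such as S100a8 and Ltf, summed to 2300 to 9720 CPM in stage I and to 10500 to 26400 CPM in stages II to IV. Only 2 of the 11 were called higher from stage I to IV, and 0 lower. Early granulocyte precursor markers (5, such as Mpo and Elane, none at 0) went from 4380 to 5710 CPM in stage I to 491 to 1010 CPM in stage IV, and all 5 were called lower. Basophil and mast cell markers (8) went from 2310 to 3350 CPM to 136 to 814 CPM, with 5 called lower and 1 higher. Merged exons of the members that rose from stage I to IV had a median length of 1478 bp, against 3135 bp for those that fell, and over all tested genes those under 1000 bp had a median log2 fold change of 0.32 against -0.07 for the others. The part of these differences in the members' changes was not tested.

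**Figure D2:**
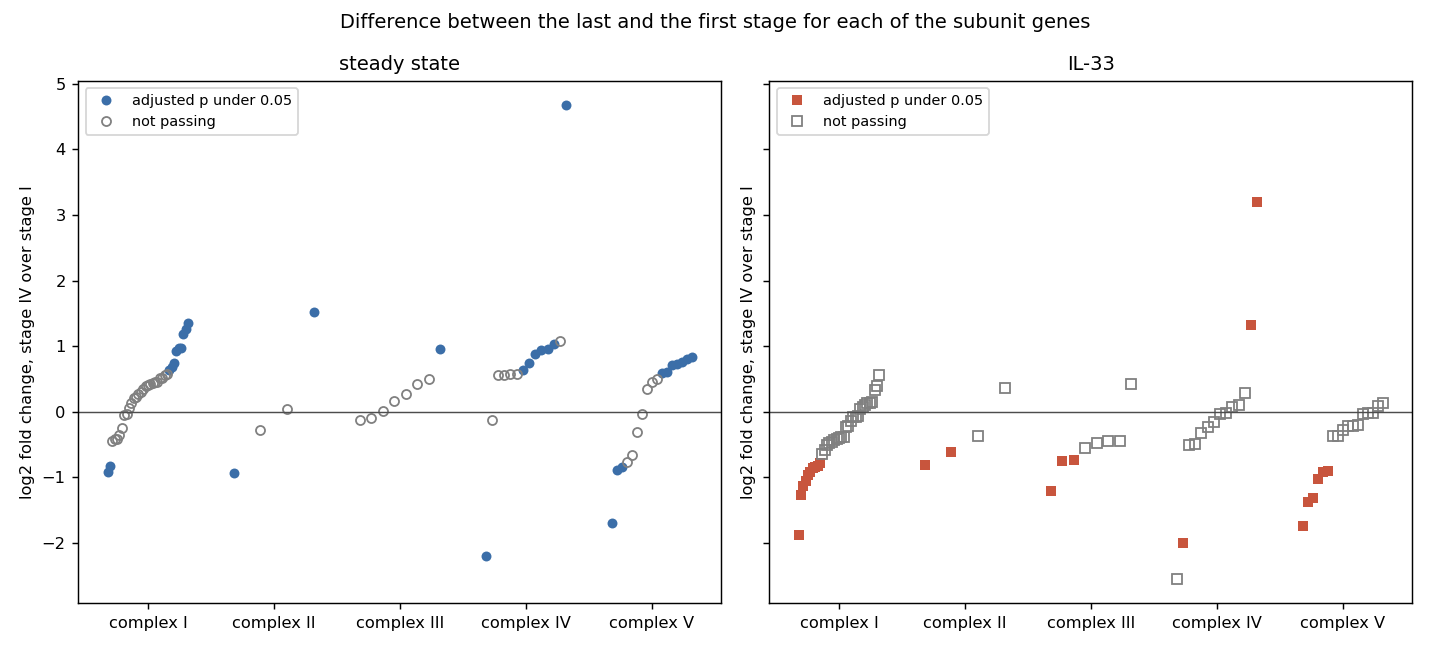
Log2 fold change of stage IV over stage I for each of the 78 genes, grouped by complex and ordered by value, in steady state (left, circles) and under IL-33 (right, squares). Filled symbols passed edgeR's test at an adjusted p of 0.05: 25 higher and 7 lower in steady state, 2 higher and 22 lower under IL-33.

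Succinate dehydrogenase, complex II, held a pair of partners that moved apart. Sdha, the flavoprotein that oxidises succinate, and Sdhb, the iron-sulfur protein that takes its electrons, form the enzyme's catalytic dimer. Their upstream sequences are shown because the genes moved in opposite directions, with those of Atp5b, which fell, and Cox7a1, which rose. The sequences are from RefSeq on GRCm38.p6, run 5′ to 3′ on the strand of the gene and end at or near the annotated start. Sdha lies on chromosome 13 (chr13:74350251-74350490, minus strand), Sdhb on chromosome 4 (chr4:140961021-140961232, plus strand), Atp5b on chromosome 10 (chr10:128083057-128083302, plus strand) and Cox7a1 on chromosome 7 (chr7:30183921-30184170, plus strand). Capitals mark a match to GCATGCGC, the core of the motif of NRF1, a regulator of many respiratory genes.
Sdha: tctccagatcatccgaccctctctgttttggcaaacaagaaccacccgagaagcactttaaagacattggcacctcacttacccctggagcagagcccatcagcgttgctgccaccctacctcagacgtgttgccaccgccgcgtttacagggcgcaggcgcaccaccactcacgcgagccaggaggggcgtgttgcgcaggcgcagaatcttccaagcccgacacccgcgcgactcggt
Sdhb: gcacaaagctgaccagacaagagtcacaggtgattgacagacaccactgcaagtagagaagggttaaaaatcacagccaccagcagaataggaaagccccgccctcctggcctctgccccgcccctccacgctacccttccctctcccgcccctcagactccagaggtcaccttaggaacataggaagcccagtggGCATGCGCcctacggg
Atp5b: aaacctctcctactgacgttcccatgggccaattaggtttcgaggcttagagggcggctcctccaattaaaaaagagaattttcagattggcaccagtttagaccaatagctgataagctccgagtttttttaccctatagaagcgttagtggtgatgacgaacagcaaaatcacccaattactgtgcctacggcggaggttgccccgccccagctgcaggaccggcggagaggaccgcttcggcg
Cox7a1: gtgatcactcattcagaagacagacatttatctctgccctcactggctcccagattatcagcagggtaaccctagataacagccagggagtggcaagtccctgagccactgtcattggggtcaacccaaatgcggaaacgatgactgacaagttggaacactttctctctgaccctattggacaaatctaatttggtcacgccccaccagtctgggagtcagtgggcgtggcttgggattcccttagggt

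Of these 4 stretches, that of Sdhb held the letters once, starting 54 bases before the RefSeq start. Only exact matches were counted, so a stretch without one may still hold a near match. Over windows from 250 bases before to 50 after the start, 63 of the 78 members had a RefSeq entry, and GCATGCGC on either strand was found in 10 of them (15.9%), against 3.05% of all 27025 symbols. The ETS core CCGGAAG was found in 16 members (25.4%) against 9.93%, and the YY1 core AAGATGGC in 9 (14.3%) against 3.19%. The 27025 symbols are not limited to the 12743 genes tested, and shares among expressed genes were not computed. The higher shares are therefore not shown to be particular to these members. Such matches are letters in a window and no measure of binding.

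Sdha in stage I of steady state read 276, 332 and 261 CPM in replicates 1 to 3, and in stage IV 187, 174 and 95.6 CPM. All stage IV libraries lay below all stage I libraries. The log2 fold change was -0.93 with a standard error (SE) of 0.26 and an edgeR adjusted p of 0.00596. Sdhb went the other way, from 141, 130 and 111 CPM in stage I to 355, 301 and 436 CPM in stage IV, again with no overlap. Its log2 fold change was 1.52 (SE 0.25, adjusted p = 4.02e-05 in edgeR). Both calls held in every alternative fit and with any 1 library left out.

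As a ratio within each library, Sdhb reads over Sdha reads were 0.511, 0.391 and 0.426 in stage I and 1.90, 1.73 and 4.57 in stage IV of steady state. Stage II read 0.455, 0.463 and 0.597, and stage III 0.945, 1.99 and 2.31, above every stage I and II library and overlapping stage IV. Under IL-33 the ratio was 0.785, 0.650 and 0.709 in stage III and 1.51, 1.82 and 2.26 in stage IV. The step from II to III was not shown to differ between the conditions for Sdha (difference 0.53, adjusted p = 0.440) or Sdhb (-0.73, adjusted p = 0.220), and the ratio itself was not tested. In stage I under IL-33 replicate 2 read 1.81 while the others read 0.483 and 0.610. For the membrane anchors of the enzyme, Sdhc and Sdhd, log2 fold changes from I to IV in steady state were -0.27 (adjusted p = 0.289) and 0.04 (adjusted p = 0.885). With library totals Sdhc was called lower.

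In complex I, the NADH dehydrogenase, 2 of 7 core subunits fell and 9 of 28 accessory ones rose from stage I to IV in steady state. Over all genes tested 22.7% fell and 21.1% rose. The core subunits did not fall as a set: 5 of the 7 had a log2 fold change above 0, with a median of 0.13, against 0.45 for the accessory ones. Ndufv1, which binds the flavin where NADH is oxidised, read 156, 140 and 132 CPM in stage I of steady state and 79.9, 75.8 and 71.5 CPM in stage IV. Ndufs1, the largest iron-sulfur subunit, read 92.3, 108 and 113 CPM in stage I and 66.6, 65.8 and 44.4 CPM in stage IV. Neither gene's groups overlapped. Log2 fold changes were -0.91 (SE 0.20, adjusted p = 0.000983) for Ndufv1 and -0.82 (SE 0.21, adjusted p = 0.00346) for Ndufs1. Exons of Ndufs1 overlap Eef1b2.

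Ndufa13, an accessory subunit also known as GRIM-19, rose most among complex I genes. It read 206, 151 and 144 CPM in stage I and 318, 319 and 651 CPM in stage IV of steady state, with a log2 fold change of 1.36 (SE 0.31, edgeR adjusted p = 0.00109). Replicate 3 of stage IV lay far above the others, and the call held without it. Ndufa6 followed at 1.26 (SE 0.30, adjusted p = 0.00174) and Ndufa7 at 1.19 (SE 0.29, adjusted p = 0.00209), both accessory subunits, and the call of Ndufa6 ended without the libraries numbered 3. The other 6 complex I genes that rose (Ndufs4, Ndufb3, Ndufb4, Ndufb9, Ndufa3 and Ndufb7) had log2 fold changes of 0.64 to 0.97, and none of these was called without the libraries numbered 3. Among core subunits that passed no test, Ndufs7 stood at 0.45, Ndufs8 at 0.42 and Ndufv2 at 0.06. Reads of the 7 core subunits made up 19.2%, 19.4% and 20.2% of complex I reads in stage I and 17.0%, 16.3% and 12.7% in stage IV.

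Complex III, the cytochrome bc1 complex, had 1 call among 8 genes. Uqcrh, its hinge protein, rose from stage I to IV in steady state, from 165 ± 24.9 CPM to 321 ± 112 CPM (SD, n = 3) in libraries that did not overlap (log2 fold change 0.96, SE 0.27, adjusted p = 0.00542). The call ended without the libraries numbered 3, and without replicate 3 of stage IV alone. The Rieske protein gene Uqcrfs1 stood at 0.27 (adjusted p = 0.404), and the core protein genes Uqcrc1 and Uqcrc2 at -0.12 (adjusted p = 0.750) and 0.02 (adjusted p = 0.932).

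Complex IV, cytochrome c oxidase, is built with tissue-specific isoforms of several small subunits, and Cox7a1 and Cox6b2 had the largest rise and fall of all members from stage I to IV in steady state. Cox7a1, the isoform of heart and skeletal muscle, was near the limit of detection in stage I of steady state, at 0.596, 0.597 and 0.974 CPM, and read 11.4, 14.4 and 31.1 CPM in stage IV. Stage II read 3.31, 0.915 and 2.99 CPM and stage III 17.8, 21.1 and 30.4 CPM, so no stage III library overlapped stage II. From stage I to IV the log2 fold change was 4.68 (SE 0.57, edgeR adjusted p = 9.58e-07), and from II to III 3.26 (SE 0.53, adjusted p = 5.67e-05). Libraries of stages III and IV overlapped.

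Cox6b2, an isoform described mainly in testis, fell over the same stages. It read 41.1, 37.4 and 20.5 CPM in stage I and 4.17, 6.01 and 11.5 CPM in stage IV of steady state, a log2 fold change of -2.20 (SE 0.42, adjusted p = 0.000227). As a share of the Cox6b level per kilobase, Cox6b2 went from 8.09%, 8.34% and 5.95% to 0.620%, 0.870% and 1.16%. The common isoform Cox6b1 rose from 207 to 299 CPM over the stage I libraries to 426 to 629 CPM over those of stage IV (log2 fold change 0.96, SE 0.25, adjusted p = 0.00317), a call that ended without the libraries numbered 3.

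Within the Cox7a genes the common isoform Cox7a2 supplied most of the level per kilobase throughout, 79.9%, 77.6% and 77.6% in stage I and 72.3%, 73.8% and 64.6% in stage IV of steady state. Cox7a1 supplied 0.382%, 0.452% and 0.821% in stage I, 10.3%, 11.6% and 11.2% in stage III and 5.75%, 7.71% and 9.28% in stage IV. Cox7a2l, whose protein was not measured here, gave 18.5% to 26.1% in stage IV. Under IL-33 the Cox7a1 share was 6.09%, 5.53% and 5.16% in stage III, below every steady state library of that stage, and 12.9%, 9.57% and 10.4% in stage IV. These shares are a description, with no test.

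**Figure D3:**
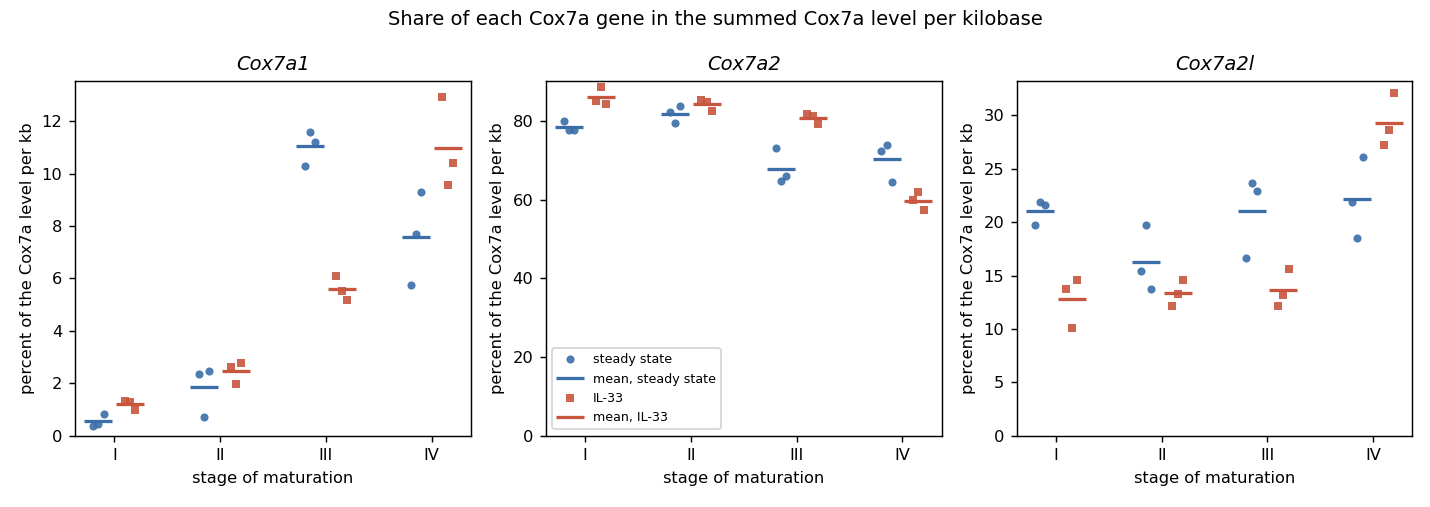
Share of Cox7a1, Cox7a2 and Cox7a2l in their summed level per kilobase of merged exon (percent, linear axes from 0), by stage. Each point is 1 library (circles steady state, squares IL-33) and each bar the mean of 3; Cox7a1 rises from under 1% in stage I of steady state to between 10.3% and 11.6% in stage III.

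Cox8a, a small subunit, rose from 304, 248 and 219 CPM in stage I to 488, 488 and 606 CPM in stage IV of steady state (log2 fold change 1.04, SE 0.23, adjusted p = 0.000773). Cox6a1, Cox5b, Cox7a2 and Cox7a2l rose too, with log2 fold changes of 0.88, 0.75, 0.64 and 0.95. All 4 calls ended without the libraries numbered 3 and with library totals, and that of Cox7a2 was kept with 9 of 24 libraries left out in turn. Cox4i1, the common isoform of subunit 4, stood at 0.58 (adjusted p = 0.0649), and was called higher with the replicate block and without replicate 2 of stage I under IL-33. Cox5a stood at -0.13 (adjusted p = 0.700). Cox6a2, the muscle isoform of subunit 6a, had no reads in any of the 3 stage III libraries of steady state, against 0, 1.73 and 4.23 CPM in stage II and 2.08, 2.86 and 5.21 CPM in stage IV. Taking 3 counts in all as the floor for the 3 stage III libraries, stage II was at least 18.9-fold and stage IV at least 27.6-fold higher. Its exons overlap Itgad, and Cox6a1 supplied 98.3% or more of the Cox6a level per kilobase in every steady state library.

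In complex V, the ATP synthase, both genes of the catalytic sites fell with maturation. Atp5a1 and Atp5b encode the alpha and beta subunits that together hold the catalytic sites. Atp5a1 read 562, 553 and 535 CPM in stage I of steady state and 328, 262 and 300 CPM in stage IV, a log2 fold change of -0.89 (SE 0.17, adjusted p = 0.000181). Atp5b read 791 to 944 CPM in the stage I libraries against 386 to 624 CPM in those of stage IV, a log2 fold change of -0.84 (SE 0.22, adjusted p = 0.00421). The groups of neither gene overlapped, and both falls were called in every alternative fit and with any 1 library left out. As a share of all complex V reads, the pair went from 32.8%, 35.4% and 36.9% in stage I to 22.9%, 19.5% and 14.5% in stage IV.

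In the rest of the synthase the genes went both ways. Of the 8 other Atp5 genes, grouped here by symbol as peripheral and supernumerary, 6 rose and 1 fell. Atp5j2 (0.83), Atp5k (0.81) and Atp5l (0.76) were among the rises, none of which was called without the libraries numbered 3. The gene that fell was Atp5s, known as coupling factor B, from 86.3, 60.6 and 47.4 CPM to 28.1, 21.8 and 10.1 CPM (log2 fold change -1.69, SE 0.37, adjusted p = 0.000791). The 3 genes that encode the same ring subunit c, Atp5g1, Atp5g2 and Atp5g3, stood at -0.66, -0.76 and -0.30 and did not pass in edgeR with all libraries and TMM scaling. Atp5g1 and Atp5g2 were called lower with the replicate block, without the libraries numbered 3, without replicate 2 of stage I under IL-33 and with library totals, which also called Atp5g3 lower.

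**Figure D4:**
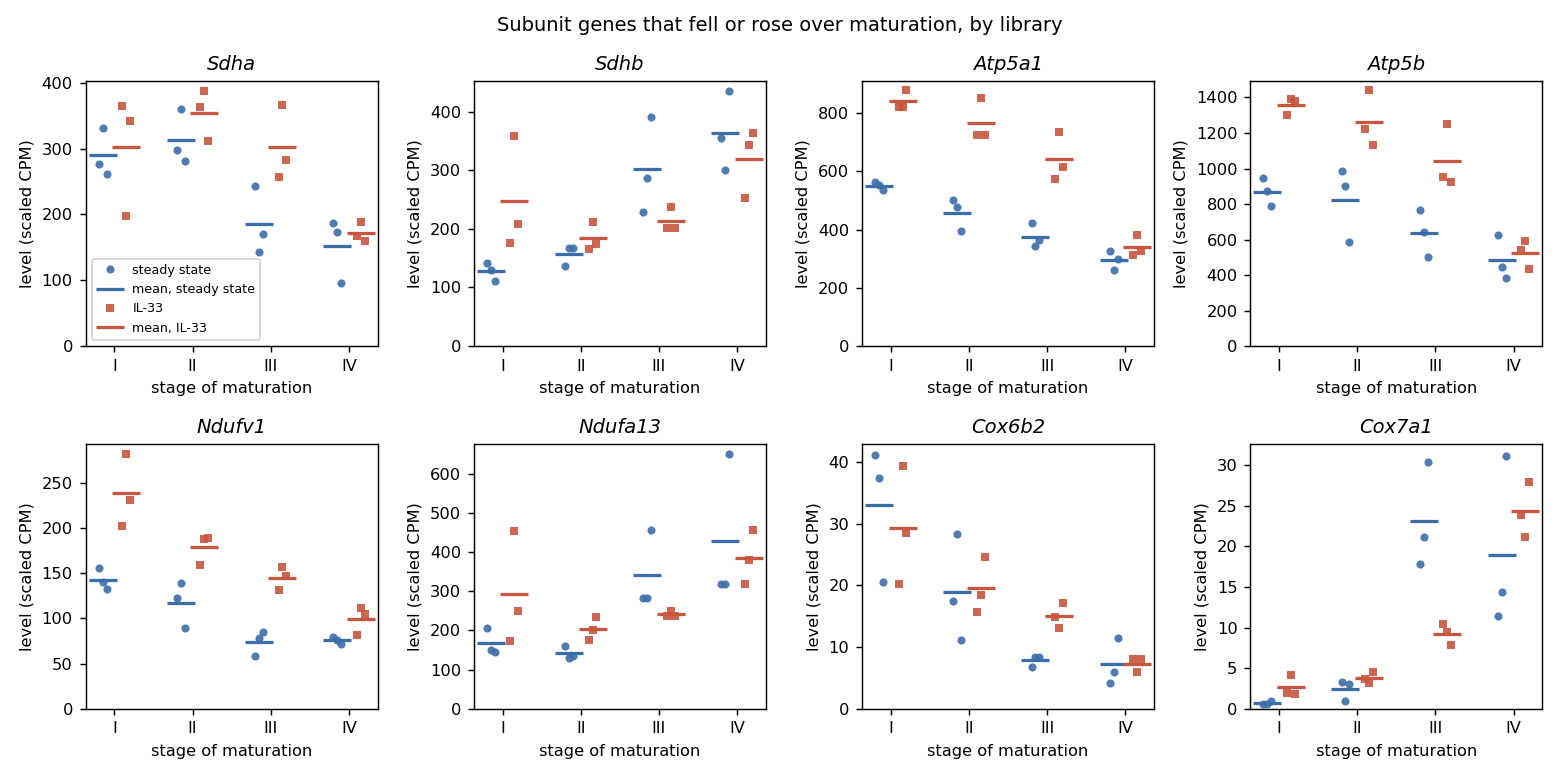
Level of 8 subunit genes in each library, in scaled CPM (linear axes from 0), by stage. Points are libraries (circles steady state, squares IL-33) and bars the mean of 3; Sdha falls as Sdhb rises, and Atp5a1 stays between 575 and 879 CPM in stages I to III under IL-33.

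Under IL-33 few genes of any kind were called among the first 3 stages. EdgeR called 0 members from stage I to II, with 28 at an unadjusted p under 0.05, all lower, and 0 in DESeq2, beside 0.0942% of all genes. From II to III it called 0, with 1 at an unadjusted p under 0.05 and 0 in DESeq2, beside 0.0863%. The median from I to II was -0.49 over the members and -0.12 without replicate 2 of stage I, the library with the high sum. All 9 markers of dividing cells were also still high in stage III, summing to 2830 to 3360 CPM, and fell to 283 to 395 CPM in stage IV.

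Between stages III and IV under IL-33, 6 members rose and 6 fell, beside 13.1% of all genes higher and 16% lower. With library totals the counts were 3 and 11. Atp5a1 went from 575, 735 and 615 CPM to 313, 380 and 326 CPM (log2 fold change -0.92, SE 0.17, adjusted p = 0.000239), and Atp5b from 953, 1250 and 922 CPM to 541, 591 and 436 CPM (1.99-fold lower, adjusted p = 0.00175). The other falls were Ndufs1 (-0.97), Sdha (-0.81), Ndufv1 (-0.55) and Ndufa12 (-1.17). The rises were Cox7a2l (1.57), Cox7a1 (1.40), Ndufa6 (0.97), Uqcrh (0.89), Ndufa7 (0.82) and Cox8a (0.75). Neutrophil markers summed to 2660 to 3890 CPM in stage III and 6280 to 10400 CPM in stage IV, and the 11 monocyte and macrophage markers, none at 0, to 1240 to 1460 and 3060 to 3260 CPM. Of the 11 in each list, 6 neutrophil markers and 7 monocyte and macrophage markers were called higher, and 0 lower. Their part was not tested.

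Over all of maturation under IL-33, from stage I to IV, 2 members rose and 22 fell, beside 21.2% of all genes higher and 22.9% lower. The rises were Cox7a1 (log2 fold change 3.20, SE 0.52, adjusted p = 2.95e-05) and Cox7a2l (1.33, SE 0.32, adjusted p = 0.00155). By complex 10 of 35 complex I genes fell, 2 of 4 of complex II, 3 of 8 of complex III, 1 of 14 of complex IV and 6 of 17 of complex V. This balance rested on replicate 2 of stage I: without it 9 members rose and 11 fell, and the members' median went from -0.38 to -0.02. The 11 were Atp5a1, Atp5b, Atp5g1, Atp5g3, Cox6b2, Ndufa10, Ndufa12, Ndufs1, Ndufv1, Sdha and Uqcrq, all also called with that library. With library totals 39 fell.

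Atp5b had the values 1300, 1390 and 1380 CPM in stage I under IL-33 and 541, 591 and 436 CPM in stage IV, a log2 fold change of -1.38 (SE 0.23, adjusted p = 3.31e-05). Atp5a1 went from 819, 822 and 879 CPM to 313, 380 and 326 CPM (-1.31, SE 0.17, adjusted p = 1.59e-06). Replicate 2 of stage I did not stand apart on either gene. Atp5g1, one of the ring genes, went from 267, 599 and 351 CPM to 92.6, 143 and 129 CPM (-1.74, SE 0.29, adjusted p = 3.47e-05). Ndufa12, an accessory subunit of complex I, went from 134, 326 and 178 CPM to 53.8, 54.2 and 64.7 CPM (-1.88, SE 0.38, adjusted p = 0.000340). On both of these genes replicate 2 was the highest stage I library, and no stage IV library reached any stage I library.

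IL-33 was compared with steady state as the mean over the stages and within each stage. Averaged over the stages, 24 members were higher and 0 lower in edgeR, with 33 and 0 at an unadjusted p under 0.05 and 19 and 0 in DESeq2, beside 21.4% of all genes higher and 16.7% lower. The median log2 fold change was 0.22 over the members and 0.05 over all genes. All 24 stayed called with library totals, 22 did without the steady state libraries numbered 3 and 19 without replicate 2 of stage I under IL-33. Over the same mean all 11 neutrophil markers were lower under IL-33, and of 11 monocyte and macrophage markers 9 were lower and 1 higher. Of 9 markers of dividing cells, 8 were higher. Of 8 basophil and mast cell markers 5 were higher and 2 lower, and of 12 eosinophil markers 7 were higher and 2 lower. Their part in the result was not tested. By complex, 9 of 35 complex I genes, 2 of 4, 2 of 8, 3 of 14 and 8 of 17 complex V genes were higher. The largest, besides the scarce Cox6a2, were Atp5g2 (0.96, SE 0.16, adjusted p = 8.03e-05), Ndufv1 (0.68, SE 0.10, adjusted p = 1.75e-05), Atp5d (0.61), Ndufa12 (0.61) and Atp5g1 (0.60).

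All 3 ring genes and 4 of the 6 genes of the head and its stalk were among the 24. Atp5a1 showed the smallest p of all members (0.58, SE 0.08, adjusted p = 1.14e-05). Its libraries did not overlap between conditions in stages I, II and III. In stage IV they did, at 328, 262 and 300 CPM in steady state and 313, 380 and 326 CPM under IL-33. Sdha (0.28, adjusted p = 0.0915) and Cox6b2 (0.21, adjusted p = 0.449), which fell with maturation in steady state, did not pass this test.

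In stage I, 12 members were higher under IL-33 and 0 lower in edgeR, with 63 and 0 at an unadjusted p under 0.05 and 26 and 0 in DESeq2, beside 2.71% of genes higher and 1.36% lower. Cox7b (1.04), Atp5g1 (1.00), Sdhb (0.96), Ndufb9 (0.95) and Ndufa10 (0.91) were the largest. The count hung on single libraries: 0 members passed without replicate 2 of stage I under IL-33, 44 without replicate 1, 0 with library totals and 2 without the steady state libraries numbered 3. The median was 0.69 over the 78 genes and 0.34 without replicate 2.

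In stage II only Atp5a1 was higher (0.74, SE 0.17, adjusted p = 0.00779), at 723, 853 and 726 CPM against 503, 478 and 394 CPM. No member was lower in edgeR, and 18 were higher and 0 lower at an unadjusted p under 0.05, with 1 and 0 in DESeq2, beside 4.06% of genes higher and 3.97% lower. Without the steady state libraries numbered 3 the call ended, and it also ended without replicate 2 of stage II under IL-33.

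Stage III was where members were called in both directions, with 8 higher and 3 lower under IL-33, beside 18.5% and 14.9% of all genes. Counting either direction, 14.1% of the members were called, a smaller share than the 33.4% of all genes. The median log2 fold change was -0.06 over the members and 0.00 over all genes. Atp5g2 read 73.0, 79.3 and 58.8 CPM under IL-33 and 28.8, 29.8 and 16.4 CPM in steady state (log2 fold change 1.49, SE 0.33, adjusted p = 0.00139). Ndufv1 read 131, 157 and 147 CPM against 58.9, 77.9 and 85.1 CPM (0.97, SE 0.20, adjusted p = 0.000848). Ndufa12 (1.11), Atp5g1 (0.79), Atp5a1 (0.77), Atp5b (0.71) and Sdha (0.71) were also higher. Cox6a2, at 6.17, 11.1 and 1.04 CPM where steady state had no reads, was at least 56.6-fold higher against the floor of 3 counts over the group.

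Lower under IL-33 in stage III were Cox7a1 (-1.33, adjusted p = 0.0384), Cox7a2l (-1.01, adjusted p = 0.0169) and Atp5f1 (-0.61, adjusted p = 0.0269), a stator subunit. Cox7a1 read 10.4, 9.45 and 7.86 CPM against 17.8, 21.1 and 30.4 CPM. With library totals 17 members were higher and no member was lower in edgeR, and the median of all genes moved to 0.27. All 9 markers of dividing cells were higher under IL-33 in this stage, and all 11 neutrophil markers lower, at 2660 to 3890 CPM against 19800 to 23500 CPM. Their part was not tested.

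By stage IV the conditions had 1 member apart. Ndufv3, an accessory subunit of the NADH-binding arm, read 300, 321 and 332 CPM under IL-33 and 152, 170 and 235 CPM in steady state (log2 fold change 0.77, SE 0.23, adjusted p = 0.0320). No member was lower in edgeR, with 2 higher and 0 lower at an unadjusted p under 0.05 and 1 and 0 in DESeq2, beside 7.48% of all genes higher and 4.68% lower. With library totals Ndufv3 was no longer called, nor without replicate 1, 2 or 3 of this stage under IL-33 or replicate 1 or 2 in steady state.

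**Figure D5:**
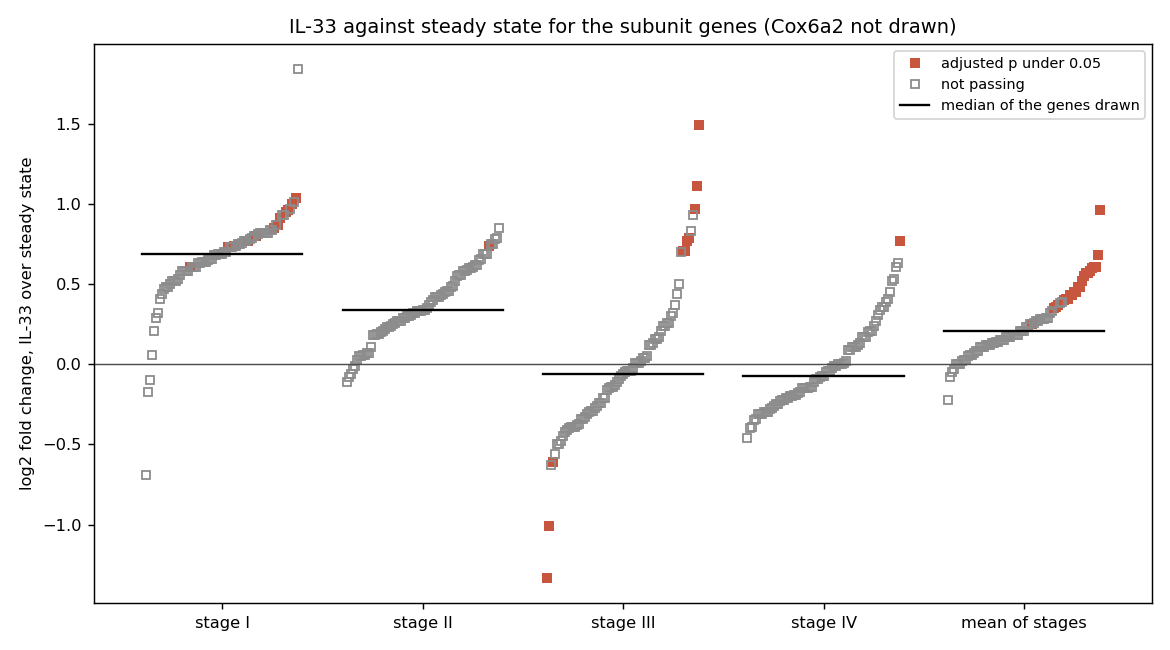
Log2 fold change of IL-33 over steady state for 77 subunit genes (Cox6a2, with no reads in a group, is not drawn), ordered by value within each stage and for the mean of the stages. Filled squares passed edgeR's test at an adjusted p of 0.05 and the black line is the median of the genes drawn, which is highest in stage I.

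Whether a step differed between the conditions was tested directly. From I to II edgeR called 0 members, with 4 at an unadjusted p under 0.05 and 0 in DESeq2, beside 0% of all genes. From II to III it called 0, with 8 at an unadjusted p under 0.05 and 2 in DESeq2, beside 6.61% of all genes. From III to IV, 2 members had a higher step under IL-33 (Cox7a2l and Ndufv3) and 2 a lower one (Cox6a2 and Ndufa12), beside 8.44% and 10.3% of all genes. The calls of Cox7a2l, Ndufv3 and Ndufa12 each ended in some alternative fit and with some single libraries left out. For Sdha the difference of that step was -0.53 (adjusted p = 0.345) and for Sdhb 0.31 (adjusted p = 0.602), so no difference between conditions was shown for either.

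Other mitochondrial genes, from 6 lists, are given for scale, beside 21.1% of all genes that rose and 22.7% that fell from stage I to IV in steady state and 21.2% and 22.9% under IL-33. Of 24 tested genes of the tricarboxylic acid cycle and pyruvate dehydrogenase, 2 rose and 12 fell from stage I to IV in steady state, 1 rose and 11 fell under IL-33, and 11 were higher under IL-33 averaged over the stages. Idh2, the mitochondrial isocitrate dehydrogenase that makes NADPH, went from 382 to 49.8 CPM on average in steady state (log2 fold change -2.94, SE 0.27, adjusted p = 2.14e-08). Of 28 genes of mitochondrial protein import, 3 rose and 10 fell in steady state and 1 rose and 19 fell under IL-33. Hspa9, the motor chaperone of import, had a log2 fold change of -1.96 and -2.28. Of 50 assembly factors, 8 rose and 11 fell in steady state, near the share over all genes, and 3 rose and 21 fell under IL-33, with Ndufaf4 at -3.07 and -2.67.

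Of 24 regulators of mitochondrial genes, 3 rose and 7 fell in steady state and 3 rose and 9 fell under IL-33. Myc, a growth regulator that raises many such genes, fell from 237 to 14.1 CPM and from 215 to 6.95 CPM, and Pprc1, a coactivator induced by growth signals, fell with log2 fold changes of -4.15 and -6.00. Esrra, a nuclear receptor that binds respiratory genes, rose, by 1.78 and 2.31. Of 22 inner membrane carriers and cristae genes, 2 rose and 9 fell in steady state and 3 rose and 10 fell under IL-33. Of 21 respiratory genes outside the symbols used, 2 rose and 11 fell, and 1 rose and 14 fell. Median log2 fold changes from stage I to IV in steady state were -0.55 for the cycle, -0.24 for import, -0.31 for assembly factors, -0.32 for regulators, -0.35 for carriers and -0.88 for the genes outside the symbols, against 0.45 for the 78 subunit genes. The last value was 0.14 without the libraries numbered 3 and 0.08 with library totals. Under IL-33 the medians were -0.76, -1.01, -0.63, -0.25, -0.70 and -1.34 in the same order, against -0.38 for the subunit genes.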

How the data were processed

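RNA from sorted bone marrow eosinophils was amplified with SMART-Seq v4 and made into Nextera XT libraries, per the labels' protocols. Both keep no strand. Reads were aligned to mm10 with STAR 2.6.1a, and DESeq2 is named, per the submitters' processing notes; the sources used here give neither the counting tool nor the annotation. The authors deposited raw read counts per gene symbol, and entries for reads with no gene or an ambiguous one, 9.19% to 30.5% of reads for the first, were left out of library sizes and tests. Counts were fitted here with edgeR 4.0.16 (quasi-likelihood test, TMM scaling, filterByExpr, R 4.3.3) in 1 model of the 8 groups, with adjustment over all 12743 genes tested and a threshold of 0.05. The sort purity given in the labels is a gate and was not measured here. The labels number the replicates of each group, and the design text calls them biological, each a pool of 3 mice.

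Amplified reads carry no molecular identifiers, so counts are not numbers of molecules. DESeq2 1.42.0, other scalings and filters, a replicate block, fits of the compared groups alone, fits without the steady state libraries numbered 3 and fits without each library were alternatives. The labels do not say what a replicate number marks. Deviations of libraries with the same number correlated at over 0.1 in every pair for stage II against I (lowest r 0.117), IV against III (0.112) and IV against I (0.12) in steady state, and for II against I (0.154) and III against II (0.131) under IL-33, so pairing comes from the data there, not from the design. Code was tested on simulated counts. The members, the other gene lists and the markers were chosen with earlier results of these data known. Named genes were up to 5 with the largest change in each direction per comparison, isoform sets, catalytic or core subunits, the 2 most abundant per kilobase of each complex, those nearest the minimum, and up to 3 of each other list per comparison. Genes named beyond these were chosen after their values were seen. Exon lengths and overlaps are from GENCODE, and promoters from RefSeq.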

Additional observations from a re-analysis of the deposited data

Results flagged for a closer look

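For 4 subunit genes the change from stage III to IV differed between the conditions in a direct test of that difference (edgeR, IL-33 step minus steady state step, adjusted over all genes tested). Cox7a2l had a difference of 1.27 on the log2 scale (SE 0.44, adjusted p = 0.0468): under IL-33 it read 56.9, 62.3 and 65.7 CPM in stage III and 138, 175 and 237 CPM in stage IV, and 79.3, 120 and 172 CPM and 120, 95.4 and 242 CPM in steady state. Ndufv3 had a difference of 1.03 (SE 0.33, adjusted p = 0.0305), with 233, 208 and 229 CPM going to 300, 321 and 332 CPM under IL-33 and 240, 277 and 285 CPM to 152, 170 and 235 CPM in steady state. With library totals neither was called. With each library left out in turn, the call of Cox7a2l was kept in 6 of 24 fits and that of Ndufv3 in 15. The call of Cox7a2l also ended with relative log expression factors, with no filter and with only the compared groups fitted. Ndufa12 had a difference of -1.57 (SE 0.53, adjusted p = 0.0407), from 131, 145 and 112 CPM to 53.8, 54.2 and 64.7 CPM under IL-33, while steady state libraries overlapped at 42.9, 42.9 and 93.4 CPM and 44.5, 49.6 and 143 CPM. Its call was kept in 14 of 24 fits with a library left out, and ended with only the compared groups fitted. Cox6a2 had a fitted difference of -9.65 (SE 2.33, adjusted p = 0.00555), which rests on a group with no reads and is no bound.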

How the results depend on the processing

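Counts of called members depended on the settings, and no named call reversed its direction in any alternative that was run. Of 147 calls of a member in a comparison, 53 were kept in every alternative and with any 1 library left out.

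In steady state, stage II against I gave 2 calls with DESeq2 and 2 with the replicate block. Stage III against II gave 3 with only the compared groups fitted, 12 with library totals and 9 without the libraries numbered 3. Stage IV against III gave 0 with compared groups alone, 2 with no filter on low counts and 0 without those libraries. Stage IV against I gave 20 with compared groups alone and 15 without those libraries. Under IL-33, compared groups alone gave 1 call for stage III against II and 27 for IV against III, which had 19 without the steady state libraries numbered 3; library totals gave 41 for IV against I.

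For IL-33 against steady state, stage I gave 26 calls with DESeq2, 6 with relative log expression factors, 0 with compared groups alone, 0 with library totals, 7 with no filter and 2 without the libraries numbered 3. Stage II gave 0 with compared groups alone, 0 without those libraries and 3 with the replicate block. Stage III gave 17 with library totals, and stage IV gave 0 with relative log expression factors, with compared groups alone and with library totals. The difference of the step from II to III gave 2 with DESeq2, 1 with library totals, 1 with no filter and 1 with the replicate block, and that from III to IV gave 2 with compared groups alone and 8 with the block.

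Leaving out 1 library at a time gave, in steady state, 0 to 1 calls for II against I, 10 to 28 for III against II (lowest without stage III replicate 3), 1 to 4 for IV against III and 18 to 41 for IV against I (lowest without stage IV replicate 3). Under IL-33 it gave 0 to 0, 0 to 0, 5 to 17 (lowest without stage IV replicate 3) and 20 to 32. For IL-33 against steady state it gave 0 to 44, 0 to 5, 5 to 14 and 0 to 1 in stages I to IV and 18 to 34 for their mean. For the differences of steps it gave 0 to 0, 0 to 1 and 1 to 4. Causes of these shifts were not tested beyond the fewer libraries fitted. Where replicate numbers did not pair the libraries, the block is a hint from the data alone.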

Other observations

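Genes of other mitochondrial lists were compared between the conditions, beside 21.4% of all genes higher and 16.7% lower under IL-33. Averaged over the stages, 11 of 24 tested genes of the tricarboxylic acid cycle and pyruvate dehydrogenase were higher under IL-33, and Idh2 had a log2 difference of 1.34. Of 28 protein import genes 12 were higher, with Hspa9 at 1.09 and Tomm40, the channel of the outer membrane, at 0.86. Among 22 carriers and cristae genes 8 were higher, with the ADP and ATP exchanger Slc25a4 at 1.40. Of 21 respiratory genes outside the symbols used 8 were higher and 2 lower, with Cyc1 higher at 0.61. Of 50 assembly factors 10 were higher, near the share over all genes, and 1 was lower, and of 24 regulators 1 was higher and 2 were lower. In stage III Myc was higher under IL-33, with a log2 fold change of 4.78.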
